A study of Homo sapiens with 4 samples.

Results

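The DEAD and DEAH box helicase genes were taken as every gene whose symbol in the authors' site labels starts with DDX or DHX followed by a digit, without numbered pseudogenes and antisense genes. The rule found 49 of the 14416 labelled genes, 34 with a DDX symbol and 15 with a DHX symbol, and 1 of them, DDX12P, is annotated as a pseudogene. These genes held 705 of the 158922 crosslink sites listed for PDCD4 and 435 of the 111361 listed for IgG. The sites come from iCLIP, which cross-links protein to RNA in living cells with ultraviolet light, isolates the RNA with an antibody and reads the cross-linked nucleotide from where the cDNA stops. The cells were wild type MCF10A, an untransformed human breast epithelial line, grown in 1 medium with horse serum, epidermal growth factor, insulin, hydrocortisone and cholera toxin, and no treatment separated the groups. There were 2 replicates precipitated with a PDCD4 antibody and 2 with isotype IgG, and the deposited list of each precipitation pools its replicates. The comparison asks where RNA of these genes was recovered with the PDCD4 antibody above what IgG recovered. Per the methods, IgG crosslink sites were subtracted from PDCD4 beforehand, a step that could lower PDCD4 sums but not IgG sums. The effect of this step on the ratios was not tested.

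DEAD and DEAH box proteins are named for the amino acids of the motif that binds and hydrolyses ATP. They use ATP to clamp, unwind or remodel RNA and RNA-protein complexes, and members act in splicing, export, translation, mRNA decay and ribosome assembly. PDCD4 is itself known for binding eIF4A, a DEAD box helicase of translation initiation. The authors did not find eIF4A among the proteins precipitated with PDCD4 from MCF10A cells. The values below concern RNA transcribed from the helicase genes and not helicase proteins. The number of cDNAs of a gene also depends on how much of its RNA the cells hold, and RNA abundance was not analysed here.

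Each value is a number of cDNAs, the score that the list gives to a 1-nt site, summed over the sites of a gene. The log2 ratio sets the summed score per 10000 cDNAs of the PDCD4 list against that of the IgG list, with a pseudocount of 1 cDNA, and its square brackets give a 95% interval from the exact binomial share of both sums. With 1 pooled list per precipitation there is no spread between replicates, no p-value was computed, and every interval covers counting error only. The PDCD4 list held 409308 cDNAs and the IgG list 276139. Sites were listed in 12 of 13 breast epithelial marker genes, with KRT19 as the exception, and in 0 of 5 marker genes of blood and vessel cells.

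The RNA around the highest-scoring PDCD4 sites is shown for the 7 members with the largest PDCD4 sums, since a listed site is the finest unit of the data and these are the sites with the most cDNAs. Each line gives 29 nt of the GRCh38 reference on the transcribed strand, 5′ to 3′, with U written as T and the listed nucleotide in the capital. Where several sites of a gene shared the highest score, 1 of them is shown.
DDX21, score 5, coding sequence in exon 15, chr10:68982607-68982635, plus strand: gaccacgggaaggaTatggaggcttcagg
DDX17, score 7, coding sequence in exon 1, chr22:38506092-38506120, minus strand: cctgccgccgccccAacagcggaggcgcc
DDX3X, score 6, 3′UTR in exon 17, chrX:41350038-41350066, plus strand: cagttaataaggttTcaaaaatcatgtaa
DDX10, score 4, coding sequence in exon 6, chr11:108679465-108679493, plus strand: tttctcagcaacacAaactaaatctgtaa
DDX6, score 4, 3′UTR in exon 14, chr11:118751424-118751452, minus strand: ttaaacaccattttTtttttctttttggg
DDX46, score 5, beyond the canonical transcript and inside C5orf24, chr5:134845959-134845987, plus strand: gccgcctctaacacTacagggtggtagcg
DHX15, score 4, coding sequence in exon 2, chr4:24576369-24576397, minus strand: tcaccaacttacccCatactcctcgatac

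The coding windows of DDX21 and DDX17 are rich in G and C, whereas the 3′UTR window of DDX6 is largely U. Scores at single sites were low throughout the family. A score greater than 5 was listed at 5 of the 705 PDCD4 sites, or 0.709% [0.303%, 1.65%] by Wilson interval, and at 1 of the 435 IgG sites, or 0.230%. The shares over all sites were 1.48% for PDCD4 and 0.690% for IgG. Apart from those of DDX17 and DDX3X above, the PDCD4 sites past this score lay in DDX5, DDX27 and DDX23, and the IgG site lay in DDX6. DDX27, a helicase of large ribosomal subunit assembly, had its site on nucleotide 2 of exon 16, right after the splice junction. The DDX5 site lies in the 3′UTR of 1 transcript and in intron 11 of the canonical one. DDX23 encodes a component of the U5 snRNP, and its site is coding in 1 transcript and 3′UTR in the canonical one. The next 30 nt after the DDX6 site are found at 2 places in the genome.
DDX5, PDCD4, score 6, chr17:64501884-64501912, minus strand: taagttttttttcaCataaaggtgctgtc
DDX27, PDCD4, score 6, chr20:49239223-49239251, plus strand: gttatctctacagaTcaatacagcaaagc
DDX23, PDCD4, score 6, chr12:48830209-48830237, minus strand: cagttctgcccttcTttgctttgggattg
DDX6, IgG, score 6, chr11:118748048-118748076, minus strand: gaaaaaaaattattTtttgttcagtaaaa

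Over the whole family the PDCD4 list held 1775 cDNAs and the IgG list 1086, which is 43.4 and 39.3 per 10000 cDNAs. The log2 ratio of these sums was 0.14 [0.03, 0.25], a small excess in PDCD4. Without DDX21, the member with the largest PDCD4 sum, it was 0.11 [-0.0039, 0.22], an interval that includes 0. The DDX genes had 1243 cDNAs against 748 and the DHX genes 532 against 338, for log2 ratios of 0.16 [0.03, 0.30] and 0.09 [-0.11, 0.29]. The mean score per site was 2.52 in PDCD4 and 2.50 in IgG, so the lists differed in the number of sites and little in their height. DDX10 and DHX9 together weighed on the sum, and the log2 ratio of the other members was 0.34 [0.23, 0.47]. Since both were picked for their excess in IgG, this higher value describes that choice.

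PDCD4 sites were listed in all 49 members and IgG sites in 45. The 36 members with at least 20 cDNAs over both lists were compared singly, and the other 13 are given by their counts. A ratio of at least 2-fold toward PDCD4 was found in 8 of the 36 (22.2%), beside 16.4% of the 7305 genes that passed the same minimum. The 8 include DHX16, which had no IgG cDNA and was counted through the pseudocount. The minimum was set on the sum of both lists, so a gene could pass it through the list where it is high. All of the 8 but DDX5 had fewer than 20 IgG cDNAs. The minimum worked the same way in the counts by role and by region below. A ratio of at least 2-fold toward IgG was found in 3 of the 36 (8.33%), beside 16.1% of all genes. The median log2 ratio was 0.40 over the 36 members and -0.10 over all genes, and it was 0.30 over the members with sites in both lists. The counting interval lay above 0 for 14 of the 36 members, below 0 for 4 and across 0 for 18. Intervals were not counted over all genes, so these numbers do not set the family apart. They also depend on the unit. By number of sites the intervals of DDX46, DDX42, DDX5, DHX37, DDX24, DDX41, DHX15 and DDX39A, which exclude 0 in cDNAs, included 0.

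**Figure D1:**
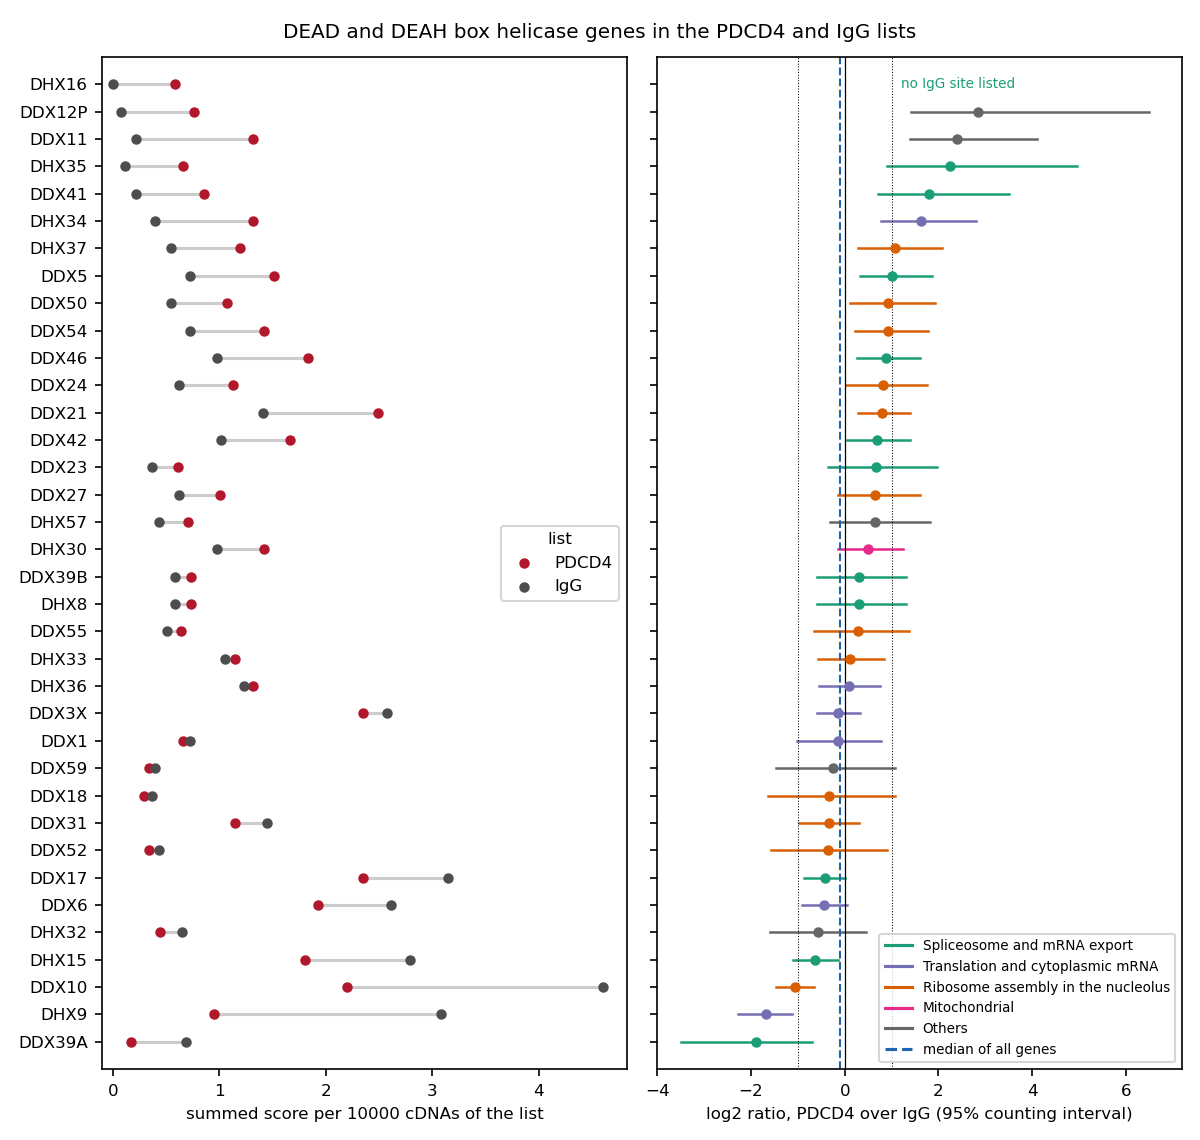
Summed score per 10000 cDNAs of each list (left, red PDCD4 and grey IgG points) and log2 ratio of PDCD4 over IgG with its 95% counting interval (right, coloured by role) for the 36 members with at least 20 cDNAs. Dotted lines mark 2-fold, the dashed line marks the median of all genes at -0.10, and the ratios run from -1.89 in DDX39A to 2.85 in DDX12P, with DHX16 shown without a ratio because it has no IgG site.

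Helicases of the spliceosome and of mRNA export formed a group of 15 members, of which 12 passed the minimum. In this group 4 were past 2-fold toward PDCD4, DHX16 through the pseudocount, and 1 toward IgG, beside 16.4% and 16.1% of all compared genes. Counts among 12 members are too small to set the group apart. Its median log2 ratio was 0.68, and its summed cDNAs were 579 against 314, a log2 ratio of 0.31 [0.11, 0.52]. DHX16, the human counterpart of yeast Prp2 that remodels the spliceosome before the first step of splicing, had 24 cDNAs at 8 PDCD4 sites and no listed IgG site. DHX38, the counterpart of Prp16, likewise had no listed IgG site, with 17 PDCD4 cDNAs. No fold is given for either gene, since the lists leave out sites that failed the authors' false discovery filter. DHX35, a spliceosome-associated DEAH helicase, had 27 cDNAs at 13 PDCD4 sites against 3 cDNAs at 1 IgG site, a log2 ratio of 2.24 [0.90, 4.97]. Of these, 21 PDCD4 cDNAs and 0 IgG cDNAs lay in its introns. DDX41, found in the catalytic spliceosome and also linked to DNA sensing, had 35 cDNAs against 6 and a log2 ratio of 1.79 [0.71, 3.52].

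DDX5 and DDX17 encode close paralogues that act in splicing, transcription and miRNA processing, and their values differed. DDX5 had 62 cDNAs at 23 PDCD4 sites against 20 cDNAs at 9 IgG sites, a log2 ratio of 1.02 [0.32, 1.87]. DDX17 had 96 cDNAs against 87, at 32 sites in each list, and a log2 ratio of -0.43 [-0.86, 0.01]. The intervals of the paralogues did not overlap in cDNAs, but by number of sites the log2 ratios were 0.75 [-0.33, 2.14] for DDX5 and -0.51 [-1.27, 0.24] for DDX17, which overlap. DDX5 was then under 2-fold, as it was with a pseudocount of 5 cDNAs (0.85). The gap was wider in the 3′UTR than in coding sequence. In the 3′UTR DDX5 held 41 cDNAs against 9 and DDX17 held 47 against 42. In coding sequence they held 15 against 6 and 18 against 14. However, 35 of the 62 PDCD4 cDNAs and 18 of the 20 IgG cDNAs of DDX5 were exonic in its canonical transcript. The 3′UTR gap therefore depends on the transcripts used to assign regions. DDX39A and DDX39B, a second pair of paralogues that load export factors on mRNA, also stood apart. DDX39A had 7 cDNAs against 19, a log2 ratio of -1.89 [-3.50, -0.70], and DDX39B had 30 against 16, a log2 ratio of 0.30. The DDX39B count leaves out 36 PDCD4 and 21 IgG cDNAs at sites labelled solely with its read-through transcript from ATP6V1G2. DDX19A and DDX19B, which release export factors at the nuclear pore, had 3 and 6 PDCD4 cDNAs against 3 and 2, all at sites that also lie in another coding gene.

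The remaining large splicing genes were DDX46, DHX15 and DDX42. DDX46, the counterpart of Prp5 that acts with the U2 snRNP, had 75 cDNAs against 27 and a log2 ratio of 0.87 [0.25, 1.60]. However, 7 of its 31 PDCD4 sites, with 21 cDNAs, lie in C5orf24, and without them the counts were 54 against 27 and the log2 ratio 0.41 [-0.26, 1.16]. DHX15, which takes spent spliceosomes apart, had 74 cDNAs against 77 and a log2 ratio of -0.62 [-1.11, -0.15]. It was 1 of the 4 members with an interval below 0 in cDNAs, but by number of sites the log2 ratio of DHX15 was -0.35 [-1.07, 0.39], which includes 0. Of its 36 PDCD4 sites, 13 lay beyond the canonical transcript. DDX42, an SF3B-associated helicase, had 68 cDNAs against 28 and a log2 ratio of 0.68. In DDX23 the counts were 25 against 10, and in DHX8, which releases mRNA from the spliceosome, they were 30 against 16.

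Helicases of translation and cytoplasmic mRNA lay on both sides. Of the 7, 6 passed the minimum, with 1 past 2-fold in each direction, beside 16.4% of all compared genes toward PDCD4 and 16.1% toward IgG. Their median log2 ratio was -0.15, and their summed cDNAs were 357 against 296, a log2 ratio of -0.30 [-0.52, -0.07]. That value rested on DHX9, and without it the sums were 318 against 211, a log2 ratio of 0.02 [-0.23, 0.28]. DHX34, which takes part in nonsense-mediated decay, had 54 cDNAs at 23 PDCD4 sites against 11 cDNAs at 5 IgG sites, a log2 ratio of 1.63 [0.78, 2.81]. DHX9, a largely nuclear helicase that unwinds double-stranded RNA and inverted repeats, had 39 cDNAs at 13 PDCD4 sites against 85 cDNAs at 37 IgG sites, a log2 ratio of -1.67 [-2.28, -1.13]. Of all compared genes, 4.31% lay below that ratio. IgG sites of DHX9 were spread over 21 exons and introns, and PDCD4 sites over 11. The highest-scoring sites of DHX9 in each list are shown, since this was the member past 2-fold toward IgG in coding sequence.
DHX9, PDCD4, score 4, coding sequence in exon 12, chr1:182860059-182860087, plus strand: caaaattcagttgtCattattagaggggc
DHX9, IgG, score 4, coding sequence in exon 28, chr1:182887237-182887265, plus strand: tttcgggcaggataTggtgcaggtgttgg

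DDX3X and DDX6 were among the members with the most cDNAs in both lists. DDX3X, an X-linked helicase that helps ribosomes start on structured mRNAs, had 96 cDNAs at 31 PDCD4 sites against 71 cDNAs at 22 IgG sites, a log2 ratio of -0.14 [-0.59, 0.33]. DDX6, which joins decapping factors in P-bodies and represses translation, had 79 cDNAs at 33 sites against 72 cDNAs at 30 sites, a log2 ratio of -0.44 [-0.91, 0.05]. Both intervals include 0. DHX36, which resolves G-quadruplexes, had 54 cDNAs against 34 and a log2 ratio of 0.08, and DDX1 had 27 against 20 and -0.15. DHX29, which helps scanning ribosomes through structured leaders, had 8 against 3 and was below the minimum.

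Helicases of ribosome assembly formed the largest group, 16 members with 12 past the minimum. Of these, 1 was past 2-fold in each direction, beside 16.4% of all compared genes toward PDCD4 and 16.1% toward IgG. The median log2 ratio was 0.47, and the summed cDNAs were 607 against 365, a log2 ratio of 0.16 [-0.02, 0.36]. DDX21, a nucleolar helicase of rRNA transcription and processing, had the largest PDCD4 sum of the family, 102 cDNAs at 38 sites against 39 cDNAs at 13 IgG sites, a log2 ratio of 0.80 [0.27, 1.39]. Its paralogue DDX50 had 44 cDNAs against 15 and a log2 ratio of 0.92, so both members of this pair lay on the PDCD4 side. DHX37, which releases U3 snoRNA from the small subunit precursor, had 49 cDNAs against 15 and a log2 ratio of 1.08 [0.28, 2.08]. It was under 2-fold by number of sites, at 0.88 [-0.30, 2.49], and with a pseudocount of 5 cDNAs, at 0.87. DDX54, DDX24 and DDX27 had 58 cDNAs against 20, 46 against 17 and 41 against 17, for log2 ratios of 0.92, 0.82 and 0.65. DDX10, needed for small subunit assembly, lay on the IgG side, with 90 cDNAs at 40 PDCD4 sites against 127 cDNAs at 57 IgG sites and a log2 ratio of -1.06 [-1.47, -0.66]. DHX33, with 47 cDNAs against 29, shares 11 of its 19 PDCD4 sites and 8 of its 11 IgG sites with C1QBP, and without them it had 23 against 9.

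DDX11 and DDX12P stood near the top of the order. DDX11 encodes an iron-sulphur DNA helicase of sister chromatid cohesion, and DDX12P is its unprocessed pseudogene copy on the same chromosome. DDX11 had 54 cDNAs at 22 PDCD4 sites against 6 cDNAs at 2 IgG sites, a log2 ratio of 2.41 [1.39, 4.11]. DDX12P had 31 cDNAs at 14 sites against 2 cDNAs at 1 site, a log2 ratio of 2.85 [1.41, 6.49]. The copies share much of their sequence, so reads could be split between them, and the 30 nt that follow each site were searched in the genome. They occurred in the partner for 2 of the 22 DDX11 sites and 2 of the 14 DDX12P sites, and at any second place in the genome for 5 and 9. With the sites found once in the genome, an alternative chosen after seeing the data, the log2 ratio was 2.02 [0.96, 3.73] for DDX11 and 1.55 [-0.15, 5.22] for DDX12P, whose interval then includes 0. The highest PDCD4 site of each is shown to let their sequences be compared, and the 30 nt that follow each occur at 2 places in the genome, with the second place outside the partner gene.
DDX11, PDCD4, score 5, intron 18, chr12:31097992-31098020, plus strand: cagccggtaaggacAcctttcccagcccc
DDX12P, PDCD4, score 4, intron 22, chr12:9420312-9420340, minus strand: ctggccagaaaacaCaaggccacgagcag

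DHX30, needed for mitochondrial ribosome assembly, was the single mitochondrial member and had 58 cDNAs at 25 PDCD4 sites against 27 cDNAs at 10 IgG sites, a log2 ratio of 0.51 [-0.15, 1.25]. The 3 members of innate immune sensing were below the minimum. DDX58, which encodes the RNA sensor RIG-I, had 3 PDCD4 cDNAs against 10 IgG cDNAs, all at sites shared with another coding gene. DDX60 had 11 against 4 and its neighbour DDX60L had 6 against 5. DHX57, DHX32 and DDX59, for which no role is given here, had 29 cDNAs against 12, 18 against 18 and 14 against 11. The lowest PDCD4 sums of the family, with 3 cDNAs each, were those of DDX19A, DDX47 and DDX58.

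The lists differed by transcript region. In coding sequence the family held 622 cDNAs in PDCD4 and 201 in IgG, a log2 ratio of 1.06 [0.83, 1.30]. The 3′UTR held 356 and 262, a log2 ratio of -0.13 [-0.36, 0.11], and introns 623 and 516, a log2 ratio of -0.30 [-0.47, -0.12]. Over all listed sites the corresponding log2 ratios were 1.11 [1.09, 1.13], 0.22 [0.21, 0.24] and -0.43 [-0.44, -0.43]. The coding excess of the helicase genes was therefore close to that of all genes, whereas their summed 3′UTR value lay below that of all genes.

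Coding sequence took 32.1% [28.7%, 35.6%] of the family's PDCD4 sites and 17.0% [13.8%, 20.8%] of its IgG sites, beside 20.6% and 9.59% of all sites. Introns took 38.3% [34.8%, 41.9%] and 49.7% [45.0%, 54.3%], beside 50.2% and 66.4% of all sites. The shares in the 3′UTR were 20.6% and 23.9%, beside 20.6% and 17.1%. In both lists the helicase genes thus carried more coding and fewer intronic sites than the lists as a whole. Per kb of sequence, PDCD4 cDNAs of the family numbered 4.89 for coding parts, 2.54 for the 3′UTR and 0.319 for introns. The IgG densities were 1.58, 1.87 and 0.264 cDNAs per kb, so coding sequence was the densest region in PDCD4 and the 3′UTR in IgG. Densities were not scaled to the size of the lists, so they compare regions within a list.

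**Figure D2:**
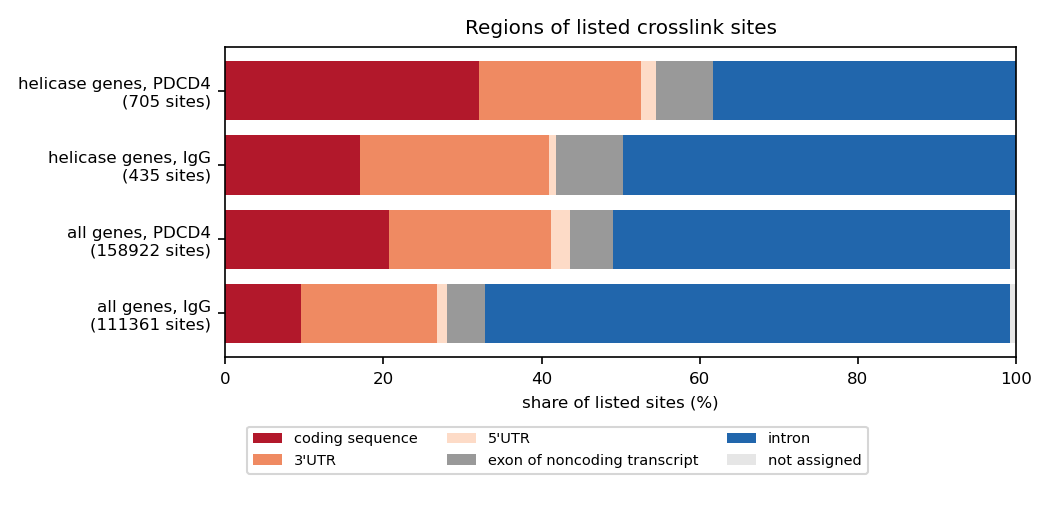
Share of listed sites (x axis, percent) in each transcript region for the helicase genes and for all genes, in the PDCD4 and IgG lists. Coding sequence takes 32.1% of PDCD4 sites and 17.0% of IgG sites of the helicase genes, beside 20.6% and 9.59% of all sites.

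Gene by gene, 15 members had at least 20 coding cDNAs over both lists. Of these, 10 were past 2-fold toward PDCD4 and 1 toward IgG, beside 54% and 3.22% of the 1399 genes compared in coding sequence, and the median log2 ratio was 1.13 for the members and for all genes. DDX3X had 52 coding cDNAs at 19 PDCD4 sites against 6 at 2 IgG sites, a log2 ratio of 2.35 [1.33, 4.06]. In its 3′UTR the order turned, with 36 cDNAs against 45 and a log2 ratio of -0.88 [-1.56, -0.23]. The near-zero value of DDX3X as a whole was therefore the sum of opposite values in its regions, with noncoding exons at 3 cDNAs against 17. The 30 nt after 5 of its 31 PDCD4 sites and 9 of its 22 IgG sites occur more than once in the genome. With sites found once, chosen after seeing the data, its log2 ratio was 0.20 [-0.33, 0.77]. DDX24, a nucleolar helicase, had 24 coding cDNAs against 2 and a log2 ratio of 2.49 [1.01, 6.14], and DDX46 had 22 against 2. DDX21 had 45 against 13, DHX30 33 against 9, DDX41 25 against 6, DDX27 25 against 7 and DHX36 22 against 5.

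The member toward IgG was DHX9, with 20 cDNAs at 6 PDCD4 sites against 36 at 15 IgG sites and a log2 ratio of -1.38 [-2.28, -0.59]. Its introns pointed the same way, with 15 cDNAs against 39 and a log2 ratio of -1.89 [-2.91, -1.05]. DHX9 was thus on the IgG side in exons and in introns alike. DHX15 and DDX17 had coding values near equality, 25 cDNAs against 17 and 18 against 14.

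**Figure D3:**
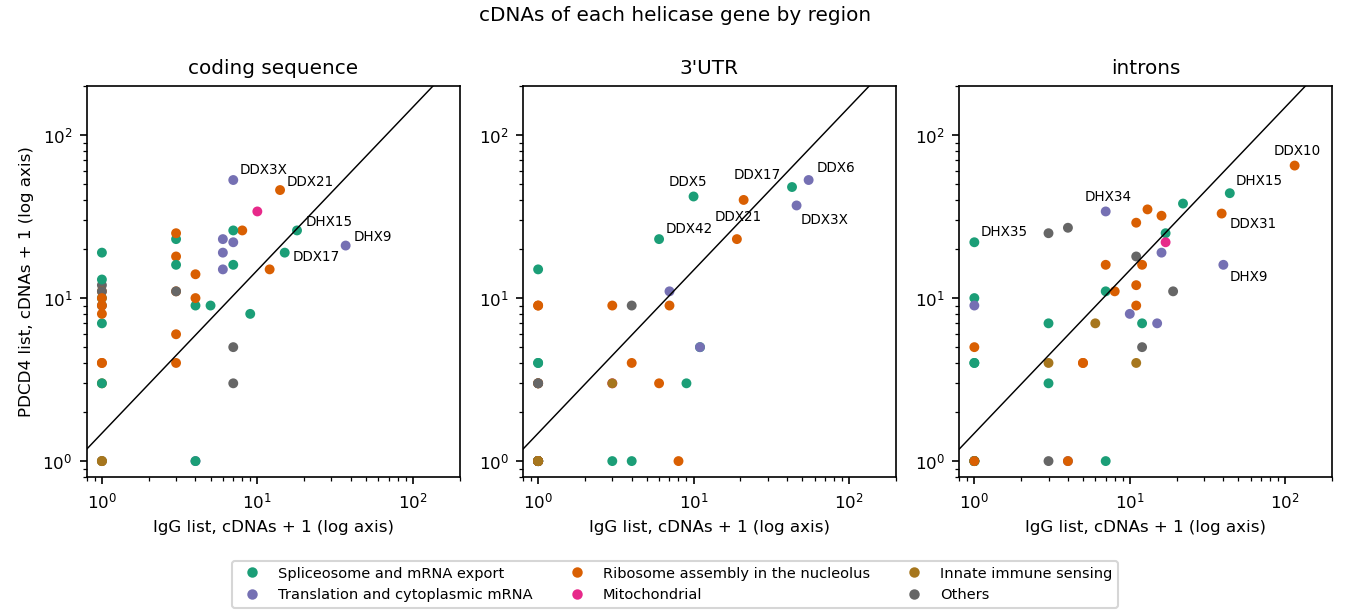
cDNAs of each of the 49 helicase genes in the IgG list (x axis) and the PDCD4 list (y axis), with 1 added to both, on log axes with a panel for each of the 3 regions, coloured by role. The line marks an equal share of both lists; DDX3X lies far above it in coding sequence (52 against 6) and below it in the 3′UTR (36 against 45), and DHX9 and DDX10 lie below it in introns.

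In the 3′UTR, 7 members passed the minimum, with 2 past 2-fold toward PDCD4 and 0 toward IgG, beside 23.6% and 11.3% of the 1816 genes compared. The members past it were DDX5, with a log2 ratio of 1.5 [0.56, 2.85], and DDX42, with 22 cDNAs against 5 and 1.37 [0.13, 3.33]. The DDX5 value includes cDNAs that lie in introns of its canonical transcript, as described with DDX17 above. DDX3X, DDX6 and DDX17, the members with the largest IgG sums in the 3′UTR, held 37.9% of the family's PDCD4 cDNAs in this region and 53.8% of its IgG cDNAs. Together they had 135 cDNAs against 141, and the other 46 members had 221 against 121, a log2 ratio of 0.30 [-0.02, 0.63]. Since DDX3X, DDX6 and DDX17 were picked for their IgG sums, their low ratio and the higher ratio of the others describe that choice. In DDX3X the last exon, exon 17, held 40 of 96 PDCD4 cDNAs and 48 of 71 IgG cDNAs.

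**Figure D4:**
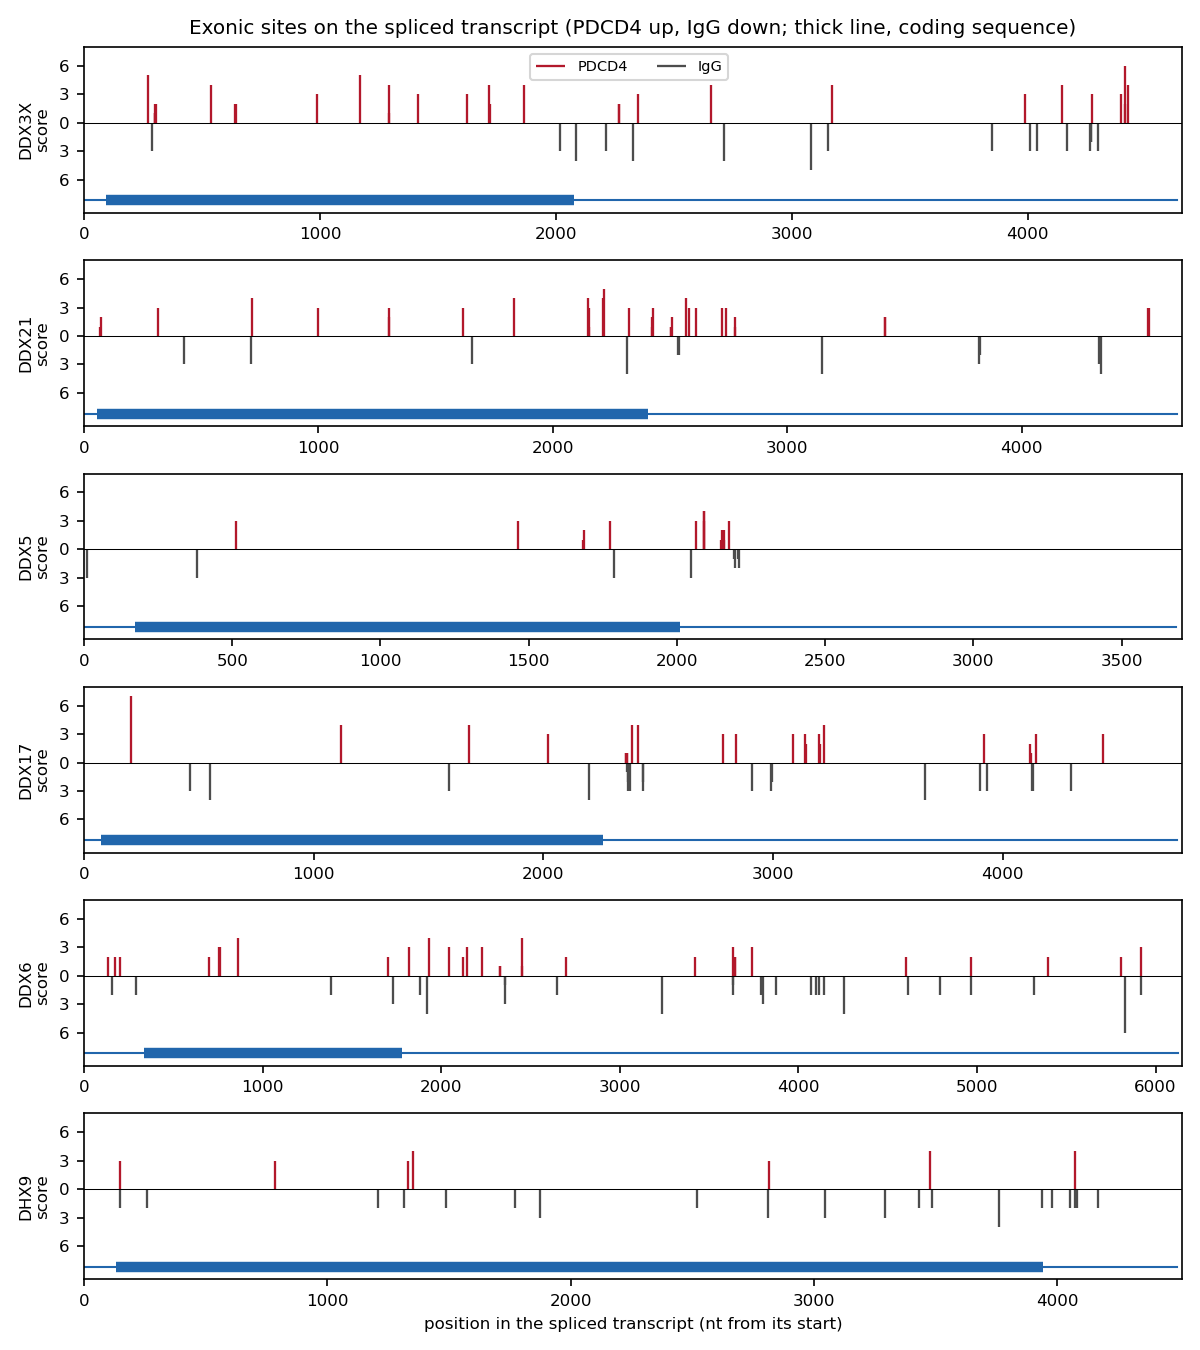
Exonic sites along the canonical spliced transcript of DDX3X, DDX21, DDX5, DDX17, DDX6 and DHX9 (x axis, nt from the transcript start), with the score of PDCD4 sites upward and IgG sites downward and the coding sequence as a thick line. PDCD4 sites run through the coding sequence of DDX3X, while its IgG sites gather in the 3′UTR, and DDX6 has most sites of both lists in the 3′UTR.

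In introns, 21 members passed the minimum, with 4 past 2-fold in each direction, beside 9.13% of the 4666 compared genes toward PDCD4 and 29.6% toward IgG. The median log2 ratio was -0.01 for the members and -0.57 for all genes. The PDCD4 side held DHX35, DDX12P, DDX11 and DHX34, with 21 cDNAs against 0, 24 against 2, 26 against 3 and 33 against 6. DHX35, with no intronic IgG cDNA, was counted through the pseudocount. The IgG side held DHX9, DDX1, DDX10 and DHX32. DDX10 spans 276 kb, and its intronic cDNAs were 64 in PDCD4 against 114 in IgG, a log2 ratio of -1.39 [-1.87, -0.95]. Intron 13 alone held 30 PDCD4 cDNAs at 13 sites and 58 IgG cDNAs at 28 sites. In coding sequence DDX10 had 14 against 11, a log2 ratio of -0.25 [-1.47, 1.06], an interval that includes 0. Of its 127 IgG cDNAs, 114 were intronic. DDX1 had ratios of opposite sign in the 2 regions. Its coding cDNAs were 21 against 6, a log2 ratio of 1.08 [-0.12, 2.84]. Its intronic cDNAs were 6 against 14, a log2 ratio of -1.67 [-3.46, -0.32]. Across the 36 members the log2 ratio and log2 gene length had a Pearson's r of -0.21 and a Spearman's rho of -0.23, and across 7266 genes r was -0.31 and rho -0.35. These describe genes of 1 pair of lists, which are not independent replicates.

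Levels per length changed the order of the members. Exonic PDCD4 cDNAs per kb of canonical transcript were highest in DDX3X at 19.0 and DDX21 at 18.0, followed by DDX17 at 13.7, DDX41 at 11.9, DDX6 at 11.8 and DDX27 at 10.5. The IgG densities of the same genes were 11, 7.08, 11.8, 1.43, 10.3 and 1.56 cDNAs per kb. DDX41 and DDX27 therefore had PDCD4 densities like that of DDX6 with an IgG density far below it. DHX9 had 5.34 cDNAs per kb in PDCD4 and 10.2 in IgG. These densities were not scaled to the size of the lists, of which the PDCD4 list is the larger, so they compare genes within a list. DDX17 and DDX6 had the higher density in PDCD4, but their log2 ratios, which are scaled, were -0.43 and -0.44.

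The part of the coding sequence that encodes the helicase core, from the ATP-binding motif I to motif VI, was located in 38 members. It held 69 of their 187 coding PDCD4 sites, or 36.9% [30.3%, 44%], and made up 37.3% of their coding length. In IgG it held 17 of 65 sites, or 26.2% [17.0%, 38.0%]. The PDCD4 share was that of the length, so the sites showed no excess in the conserved core. Relative to exon ends, 97 PDCD4 sites lay in the first 50 nt of an exon after a 3′ splice site and 14 in the last 50 nt before a 5′ splice site. The IgG sites divided in the same manner, 31 and 3.

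Uridine stood at 48.1% [44.4%, 51.8%] of the family's PDCD4 sites and 56.6% [51.9%, 61.1%] of its IgG sites, beside 46.7% and 51.6% of all sites. Ultraviolet light is known to cross-link uridine most readily. The share followed the region, with 32.7% uridine at coding PDCD4 sites of the family, 55.6% at intronic sites and 57.2% at 3′UTR sites. The IgG shares in these regions were 28.4%, 60.6% and 69.2%. The GC content of the 29 nt around the sites was 40.8% in PDCD4 and 38.2% in IgG, beside 43.5% and 40.3% over all sites.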

How the data were processed

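iCLIP data of 4 samples were used, 2 replicates each of PDCD4 and IgG, deposited as 1 pooled list per precipitation, so samples were compared as 2 lists. Per the methods, the authors processed reads with iCount and the Ensembl release 88 genome (GRCh38), subtracted IgG crosslink sites from PDCD4 and kept sites at a false discovery rate of 5%, while 721 positions stood in both lists. The deposited score is a raw count of cDNAs per 1-nt site, and the filter on scores greater than 5 named in the methods is not applied in the deposited lists. Alignment and cDNA collapsing settings are not given in the sources used here. cDNAs may not be independent molecules, so intervals cover counting error only.

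Sites were assigned by the authors' gene label and strand. A site with several labels counted for each gene (23 sites of the members). Regions came from GENCODE release 44 with coding sequence placed first, then the 3′UTR, the 5′UTR, noncoding exons and introns, and all 49 identifiers matched. Helicase motifs were located in translated GENCODE coding sequences. Sums were compared per 10000 cDNAs with a pseudocount of 1, a minimum of 20 cDNAs over both lists and a threshold of 2-fold. Sums were given exact intervals and shares Wilson intervals (95%). Scripts were tested on simulated data and used Python 3.11.15, numpy 2.4.6, pandas 2.3.3, scipy 1.17.1, Biopython 1.88 and matplotlib 3.10.9.

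The members, role groups and lists were chosen with earlier results of these data known. Genes named were the 10 members with the largest PDCD4 sum, the 6 at either end of the order of log2 ratios, those with a site scoring greater than 5, and the paralogue pairs. Other members were named after their values were seen. Sequences shown were the highest PDCD4 site of members with large PDCD4 sums, of which 1 is not reported here, the sites scoring greater than 5, and sites of DHX9, DDX11 and DDX12P. Alternatives were scores greater than 5, numbers of sites, single labels, positions in both lists left out, totals without mitochondrial RNA or without the 10 largest genes, pseudocounts, minimums, the largest member left out, 1 transcript per gene, clusters within 20 nt and another helicase core. Sites with a sequence found once in the genome were added after seeing the data.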

Additional observations from a re-analysis of the deposited data

How the results depend on the processing

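No paired analysis was possible because each deposited list pools its replicates, and for the same reason no replicate could be left out. Most results moved little: of the values of the main comparisons under an alternative, 68 stayed within their interval or tolerance and 16 moved, none changed sign among called values, and the family log2 ratio ran from 0.11 to 0.24. With scores greater than 5, 5 PDCD4 sites and 1 IgG site remained: 0 members passed 2-fold toward PDCD4 and 0 toward IgG, the PDCD4 shares were 60% coding, 0% intronic and 60% uridine, the IgG shares were 0% coding, 0% intronic and 100% uridine, the coding log2 ratio was 2.37 and the 3′UTR one -1.06, and 0% of PDCD4 coding sites lay in the helicase core. So few sites carry no comparison, and the median over members, the intron ratio and the IgG core share could not be computed there. A minimum of 50 cDNAs left 4 members past 2-fold toward PDCD4 and a median of 0.65, and no minimum gave 6 toward IgG. With 1 transcript per gene the intron shares were 44.8% in PDCD4 and 57.5% in IgG. With sites found once in the genome, chosen after seeing the data, 9 members passed 2-fold toward PDCD4 and 2 toward IgG, and the log2 ratio of DDX10 was -0.98, under 2-fold. DHX16 had 1.97 with a pseudocount of 5, a value that depends on the pseudocount as the gene has no IgG site. Low scores limit single sites, and a small list of cDNAs leaves wide intervals for genes such as DHX35 and DDX12P.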

Other observations

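Helicases of related families, listed for comparison and not among the DDX and DHX symbols, included 14 of 16 genes with a site and 13 with at least 20 cDNAs over both lists. Of the 13, 2 were past 2-fold toward PDCD4 and 2 toward IgG, beside 16.4% and 16.1% of all compared genes. Their median log2 ratio was -0.08, beside -0.10 over all genes, so this set lay close to genes in general. The genes of the eIF4A proteins are DEAD box genes by sequence. EIF4A1, the main translation initiation helicase, had 51 cDNAs at 13 PDCD4 sites against 20 at 6 IgG sites, a log2 ratio of 0.74 [0.01, 1.61]. EIF4A2 had 50 cDNAs against 40 and a log2 ratio of -0.25 [-0.87, 0.39]. EIF4A3, the helicase of the exon junction complex, had 24 cDNAs against 7 and a log2 ratio of 1.08 [-0.05, 2.67]. SNRNP200, which unwinds U4 from U6 in the spliceosome, had 66 cDNAs against 26 and a log2 ratio of 0.74 [0.10, 1.49]. On the IgG side, DICER1, which cuts miRNA precursors, had 41 cDNAs against 81 and a log2 ratio of -1.53 [-2.13, -0.99], and ASCC3, a subunit of the complex that resolves collided ribosomes, had 150 against 223 and a log2 ratio of -1.14 [-1.45, -0.83].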
